A study of Oryctolagus cuniculus with 3 samples.

Results

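Genes of DNA replication and DNA repair were compared between rabbit late blastocysts that came from slow-frozen morulae and from vitrified morulae. The genes were taken by symbol: the XRCC, ERCC, RFC, PARP and Fanconi (FANC) families, the RAD genes of the damage response, DNA polymerases, mismatch repair genes, the RPA subunits, DNA ligases, DDB1, DDB2, XPC, ATR and the BRCA genes. The rule found 63 genes with 134 probes, among 6514 named genes with 13968 probes. Another 7 genes of these families (ERCC4, FANCD2OS, MSH4, PARP14, PARP8, PARP9 and RAD9B) have probes on the array that are not in the value table, and on the scanned arrays no probe of theirs exceeded background clearly in every channel. PCNA, PARP1 and ATM had no probe under the naming used and were not analysed here.

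Frozen embryos were morulae recovered on day 3 of development after artificial insemination, frozen, transferred to recipient does and collected at day 6. Vitrified embryos had the same course with vitrification in place of freezing, in which the morulae were passed through dimethyl sulphoxide and ethylene glycol and plunged into liquid nitrogen. All embryos were thus cryopreserved and grew in a recipient's uterus, and fresh embryos were not analysed here. The strain, the freezing protocol and the number of embryos per sample are not given in the sources used here. Each of 3 arrays with 2 colours held 1 frozen and 1 vitrified sample, with the dyes exchanged on replicate 2, and the labels name the arrays biological replicates. Each value is a log2 ratio of frozen over vitrified, so that a value below 0 is a lower signal in frozen embryos, and the number of arrays limits the precision.

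At a replication fork the RFC complex loads the sliding clamp PCNA, the polymerases alpha, delta and epsilon copy the strands, RPA covers exposed strands and ligases seal the nicks. Damaged bases, bulky lesions, mispaired bases and broken chromosomes are each handled by their own repair pathway, and the kinases ATM and ATR halt the cell cycle meanwhile. The preimplantation embryo divides fast, and its replication genes are known to be highly expressed. The roles given below are those known from human and mouse cells.

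The probes behind the results are 60-base oligonucleotides, and a few are shown: the 3 genes furthest from 0, FANCL and RAD54B, where a second probe could be set beside the first, and POLA1, whose probes differ in sign. The sequences and positions are those in the scanner files, and their genome build is not given in the labels or headers read here. For DDB2, capitals mark the 56 bases that all 5 of its probes share. These probes are shifted against each other by 1 base at a time, so they are not independent measurements. The probe used for DDB2 lies at chr1:186593337-186593548, a stretch of 212 bases for 60 bases of probe, and the first along the transcript at chr1:186593335-186593546.
DDB2, probe used: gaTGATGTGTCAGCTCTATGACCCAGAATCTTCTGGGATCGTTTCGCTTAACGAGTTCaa
DDB2, first probe along the transcript: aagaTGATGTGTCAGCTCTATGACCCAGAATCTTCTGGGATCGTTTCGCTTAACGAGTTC
The next genes by distance from 0 rest on a single probe each, XPC at chr9:9765410-9765469 and XRCC4 at chr11:3594224-3594283, printed with no capitals.
XPC: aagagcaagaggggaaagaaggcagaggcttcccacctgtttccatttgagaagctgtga
XRCC4: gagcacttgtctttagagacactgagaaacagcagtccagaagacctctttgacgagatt
FANCL and RAD54B, which lay above 0 on every array, have 2 probes each, which lie end to end and share no run of 12 bases. Those of FANCL lie at chr2:127996450-127999100 and chr2:127999101-127999160, and those of RAD54B at chr3:110006155-110006214 and chr3:110006095-110006154.
FANCL, probe used: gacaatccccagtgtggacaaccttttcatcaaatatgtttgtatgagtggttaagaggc
FANCL, other probe: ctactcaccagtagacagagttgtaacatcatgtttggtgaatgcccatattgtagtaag
RAD54B, probe used: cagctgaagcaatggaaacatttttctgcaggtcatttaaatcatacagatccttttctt
RAD54B, other probe: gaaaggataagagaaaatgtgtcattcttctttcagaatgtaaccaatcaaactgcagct
POLA1 has probes at 2 distant places of its transcript, at chrX:10853232-10853291 for the probe used and chrX:10918999-10919058 for the other, and they gave different ratios.
POLA1, probe used: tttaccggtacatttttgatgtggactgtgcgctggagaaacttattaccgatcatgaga
POLA1, other probe: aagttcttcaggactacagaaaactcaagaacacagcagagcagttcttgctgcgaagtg

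Each gene is given by its probe of highest mean processed intensity, and none of the 63 differed between frozen and vitrified embryos past the test. Their median log2 ratio over the 3 arrays was -0.0066, against -0.013 for all 6514 named genes. The means ran from -0.46 (DDB2) to 0.33 (XRCC4). Within 0.25 of 0 lay 60 of the 63, where 82.5% of all named genes did. Of the 63, 0 reached 1.5-fold, where 2.24% of all named genes did. For each probe, limma's moderated test against 0 over all probes, with Benjamini-Hochberg adjustment, called 0 of 22839 probes (0.0%; threshold 0.05). Without replicate 1 it called 0 of the 134 probes of the 63 genes, and 796 (3.49%) of all probes, or 3.09% of all named genes by the probe used. With all arrays the adjusted p was 0.9999 for each of the 63. Without adjustment 1 of the 63 genes, DDB2, had p under 0.05 (4.21% of all named genes and 4.47% of all probes did). The 95% intervals of the fit reached a median of 0.37 to either side of the mean, all 63 lay within 2-fold either way, and 50 lay within 1.5-fold.

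Nucleotide excision repair held DDB2 and XPC, the genes with the means furthest below 0. This pathway cuts out bulky lesions such as those made by ultraviolet light. DDB2, the subunit that binds the lesion, had -0.62, -0.08 and -0.66 on replicates 1, 2 and 3, a mean of -0.46 ± 0.32 (SD, n = 3), or a 1.37-fold lower signal in frozen embryos. It lay below 0 on all 3 arrays, and the 95% interval was -0.88 to -0.030 (limma, unadjusted p = 0.040, adjusted p = 0.9999). Its log2 processed intensity was 6.60 in frozen and 7.23 in vitrified embryos on replicate 1, and 6.64 and 7.30 on replicate 3. XPC, which takes over the lesion from DDB2, had -0.60, 0.06 and -0.45, a mean of -0.33 ± 0.35. It was below 0 on replicates 1 and 3 and near 0 on the dye swap. XPC's log2 intensity was 6.93 in frozen and 7.53 in vitrified embryos on replicate 1, and 7.25 and 7.69 on replicate 3. DDB1, the partner of DDB2 in a ubiquitin ligase, had -0.87, 0.63 and -0.31, a mean of -0.18 ± 0.76. The arrays thus did not share a direction for DDB1, and its 3 overlapping probes gave -0.87 to -0.83 on replicate 1 and 0.56 to 0.64 on replicate 2.

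Nucleotide excision repair also held ERCC3, ERCC8 and ERCC6L2. ERCC3, a helicase that opens the DNA, had -0.42, 0.08 and 0.10, a mean of -0.08 ± 0.29. ERCC8, which acts at lesions in transcribed genes, had -0.01, 0.20 and 0.29, a mean of 0.16 ± 0.15 (SD, n = 3). The other probe of ERCC8 had 0.20, 0.02 and 0.03, so its sign on replicate 1 depended on the probe. ERCC6L2, a relative of the ERCC6 helicase, had a mean of -0.08 ± 0.43 from the probe used, and its 7 probes had means from -0.38 to 0.12. By the probe used, all 6 genes of this group were below 0 on replicate 1, where 58.6% of all named genes were. Of the 6, 1 was below 0 on the dye swap and 3 were on replicate 3, and the median over their means was -0.13.

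The replication fork held 15 genes. Their means ran from -0.22 to 0.17, with 7 above and 8 below 0 and a median of -0.017. LIG1, the ligase that joins Okazaki fragments, had -0.35, 0.13 and -0.44, a mean of -0.22 ± 0.31. LIG1 was lower on replicates 1 and 3 and higher on the dye swap. POLE3, a histone-fold subunit of polymerase epsilon, had -0.16, 0.06 and 0.60, a mean of 0.17 ± 0.39. RPA1, the large subunit of the protein that covers exposed strands, had -0.83, 0.22 and 0.12, a mean of -0.16 ± 0.58, so that replicate 1 alone carried its sign.

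The other subunits of RPA had smaller values on replicate 1. RPA2 had -0.17, -0.04 and 0.30, a mean of 0.03 ± 0.24 (SD, n = 3). RPA3, the smallest subunit, had 0.01, 0.13 and 0.03, a mean of 0.06 ± 0.06, and its log2 intensity was 14.56 in frozen and 14.55 in vitrified embryos on replicate 1, and 13.91 and 13.88 on replicate 3. The probe used for RPA3 was above 0 on every array by a small amount, while its 5 probes ran from -0.08 to 0.13 on replicate 2. The difference between RPA1 and RPA3 was not tested.

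The catalytic subunit POLE and the clamp loader subunit RFC5 were both below 0 on replicate 1 and above 0 on the other arrays. POLE had -0.50, 0.09 and 0.17, a mean of -0.08 ± 0.37, and RFC5 had -0.55, 0.18 and 0.14, a mean of -0.07 ± 0.41. Each has 5 overlapping probes, which lay between -0.50 and -0.45 for POLE and between -0.59 and -0.51 for RFC5 on replicate 1. POLA2, POLD3 and POLD2, accessory subunits of the polymerases, had -0.34, -0.38 and -0.47 on replicate 1, in this order, and 0.29, 0.40 and 0.09 on replicate 3. RFC1, RFC3 and RFC4, further subunits of the clamp loader, had means of -0.02, 0.02 and -0.06, and POLD4, a small subunit of polymerase delta, had -0.02. On replicate 1, 12 of the 15 fork genes (80%) were below 0, against 58.6% of all named genes; on replicates 2 and 3 there were 4 and 5.

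For POLA1, the catalytic subunit of polymerase alpha, the probe used had -0.10, 0.35 and 0.14, a mean of 0.13 ± 0.23 (SD, n = 3). Its other probe, printed above, had -0.83, 0.16 and -0.06, a mean of -0.24. The probe used had log2 intensities of 9.28 in frozen and 9.38 in vitrified embryos on replicate 1, and the other had 5.57 and 6.41. The sign for POLA1 thus depended on which probe was read.

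Mismatch repair was represented by 4 genes, all below 0 on replicate 1, where 58.6% of all named genes were. MSH5, which acts in meiotic recombination, had -0.53, -0.07 and -0.11, a mean of -0.24 ± 0.26. It was below 0 on every array, with log2 intensities of 4.40 in frozen and 4.93 in vitrified embryos on replicate 1 and of 4.87 and 4.98 on replicate 3. The other MSH5 probes on the array are not in the value table. None of them exceeded background clearly in both channels of replicate 1. MSH6 and MSH3, which recognise mispairs, had means of -0.05 ± 0.24 and -0.0016 ± 0.11 (SD, n = 3).

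Base excision and strand break repair held POLB, LIG3, XRCC1 and PARP2. POLB, the polymerase that fills the gap left by a removed base, had -0.14, -0.12 and -0.39, a mean of -0.21 ± 0.15 (SD, n = 3; limma, unadjusted p = 0.17, adjusted p = 0.9999). It was below 0 on all 3 arrays, at log2 intensities of 10.83 in frozen and 10.97 in vitrified embryos on replicate 1 and of 10.49 and 10.87 on replicate 3. LIG3, the ligase of this pathway, had -0.88, 0.34 and -0.06, a mean of -0.20 ± 0.62, and so had no shared direction. XRCC1, the scaffold that binds both, had 0.11, -0.14 and -0.22, and PARP2, a sensor of strand breaks, had 0.18, -0.09 and 0.12.

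End joining, which rejoins broken ends without a template, held the gene furthest above 0. XRCC4, the partner of ligase IV, had 0.12, 0.22 and 0.66, a mean of 0.33 ± 0.28 or a 1.26-fold higher signal in frozen embryos. All 3 arrays lay above 0, with a 95% interval of -0.07 to 0.74 (limma, unadjusted p = 0.089, adjusted p = 0.9999). Its log2 intensity was 8.47 in frozen and 8.35 in vitrified embryos on replicate 1, and 8.22 and 7.56 on replicate 3. POLQ, the polymerase of an alternative joining route, had 0.21, 0.01 and 0.08, although its 3 probes had means from -0.12 to 0.12. POLL, a gap-filling polymerase, had a mean of 0.08 ± 0.22. The Ku proteins XRCC5 and XRCC6, which bind the broken ends, had means of -0.02 ± 0.08 and -0.01 ± 0.40 (SD, n = 3). XRCC6 had -0.45, 0.32 and 0.11, and XRCC5 had -0.11, 0.05 and 0.00.

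Homologous recombination, which repairs a break from the sister chromatid, had 12 genes with means from -0.15 to 0.20 and a median of -0.00077. RAD54B, a motor protein that moves along DNA, had 0.32, 0.19 and 0.10, a mean of 0.20 ± 0.11 (limma, unadjusted p = 0.18, adjusted p = 0.9999), above 0 on all 3 arrays. Its log2 intensity was 9.21 in frozen and 8.88 in vitrified embryos on replicate 1, and 8.89 and 8.78 on replicate 3. Its other probe gave 0.67, 0.15 and 0.14. RAD54L, its relative, had -0.59, 0.21 and 0.20, a mean of -0.06 ± 0.46.

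RAD51B, RAD51C and RAD51D, which assist strand exchange, had means of -0.02, -0.02 and 0.12. RAD51AP1, which stimulates strand pairing, had 0.12, -0.30 and -0.26, a mean of -0.15 ± 0.24. BRCA1 and BRCA2, which act early at the break, had means of 0.08 ± 0.34 and 0.03 ± 0.21 (SD, n = 3). PARPBP, which restrains recombination, had -1.06, 0.49 and 0.15, a mean of -0.14 ± 0.82, the widest spread over arrays of the 63 genes. RAD52, which anneals strands, had -0.08, 0.47 and -0.33, and RAD54L2, a related helicase, had 0.21, 0.02 and -0.04.

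The 6 Fanconi genes, which act on crosslinks between the strands, had 4 means above and 2 below 0. FANCL, the ubiquitin ligase subunit of the core complex, had 0.07, 0.20 and 0.36, a mean of 0.21 ± 0.15 (limma, unadjusted p = 0.18, adjusted p = 0.9999). It lay above 0 on all 3 arrays, and its other probe gave 0.06, 0.17 and 0.16. FANCL's log2 intensity was 10.11 in frozen and 10.04 in vitrified embryos on replicate 1, and 9.84 and 9.48 on replicate 3. FANCI, one of the pair of proteins that FANCL modifies, had -0.02, -0.35 and -0.12, a mean of -0.17 ± 0.17, below 0 on all 3 arrays, and its other probe was also below 0 on each. FANCF had -0.25, -0.01 and -0.06 from the probe used, and its 5 probes had means from -0.22 to 0.02. On replicates 1 and 2 the probes of FANCF did not share a sign. FANCB, FANCC and FANCG, also of the core complex, had means of 0.01, 0.06 and 0.06.

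The damage checkpoint genes lay close to 0. ATR, the kinase that senses stalled forks, had 0.15, 0.12 and -0.04, a mean of 0.08 ± 0.10. RAD1, part of a clamp at damaged sites, had a mean of 0.04 ± 0.10, and RAD17, which loads that clamp, had 0.02 ± 0.17 (SD, n = 3).

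Among translesion factors, which copy past damaged bases, POLI had 0.89, 0.15 and -0.29, a mean of 0.25 ± 0.59. Its log2 intensity was 10.70 in frozen and 9.81 in vitrified embryos on replicate 1, and 9.64 and 9.92 on replicate 3, so that the scanned arrays of the same dye orientation opposed each other. Its 2 probes, which do not overlap, both showed this, at 0.88 and 0.89 on replicate 1. RAD18, a ubiquitin ligase that marks PCNA at stalled forks, had -0.63, 0.11 and -0.11, a mean of -0.21 ± 0.38. POLK had 0.43, -0.53 and -0.24 from the probe used and -0.04, 0.19 and -0.56 from the other. POLH had 0.14, 0.17 and -0.01.

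The PARP family members outside strand break repair had means of 0.14 (PARP11), 0.11 (PARP16), -0.04 (PARP4) and -0.06 (PARP6). PARP11 was above 0 on all 3 arrays by the probe used, at 0.07, 0.19 and 0.15. Its 3 probes ran from -0.03 to 0.17 on replicate 1 and from -0.11 to 0.15 on replicate 3. PARP16, which sits in the endoplasmic reticulum, had -0.35, 0.30 and 0.37.

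On all 3 arrays 6 of the 63 genes were above 0 (RPA3, RAD54B, XRCC4, POLQ, FANCL and PARP11), where 10.7% of all named genes were. Another 5 were below 0 on all 3 (MSH5, POLB, DDB2, FANCF and FANCI), where 11.7% of all named genes were. Counts of 6 and 5 among 63 genes are close to these shares or below them. They rest on the probe used, and MSH5 had the lowest signal of the 63. For RPA3, POLQ, PARP11 and FANCF, another probe of the gene lay on the other side of 0 on some array.

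**Figure D1:**
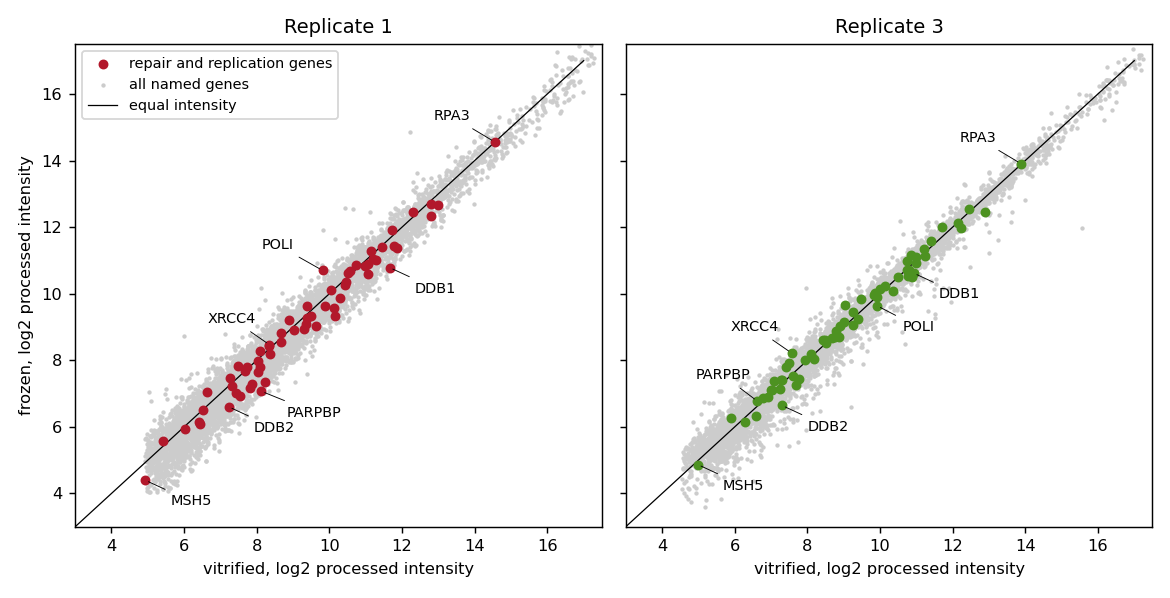
Log2 processed intensity in frozen embryos (y axis) against vitrified embryos (x axis) on replicates 1 and 3, the arrays with scanner files, for the 63 genes (coloured) and all named genes (grey). The line marks equal intensity, and POLI lies above it on replicate 1 (10.70 against 9.81) and below it on replicate 3 (9.64 against 9.92).

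The spread between arrays was larger than the mean difference between frozen and vitrified embryos. The median SD over arrays of the 63 genes was 0.23, against a median size of the mean of 0.081. On replicate 1, 43 of the 63 genes (68.3%) were below 0, with a median of -0.14, where 58.6% of all named genes were. For replicate 2 it was 16 (25.4%), with a median of 0.12, where 43.0% of all were. For replicate 3 it was 28 (44.4%), with a median of 0.06, where 46.8% of all were. The medians of all named genes were -0.08, 0.04 and 0.02, with the same sign on each array. Below 0 on replicate 1 and above 0 on the other arrays were 23 of the 63 genes, where 25.4% of all named genes were, and no test of that difference was made. Taken across the 63 genes, and genes are no replicates, Pearson's r was -0.44 for the first array against the dye swap (Spearman's rho -0.36). It was -0.05 between replicate 1 and replicate 3 (rho -0.15) and 0.23 between the dye swap and replicate 3 (rho 0.30). Over all named genes the values were -0.38, 0.01 and 0.48 in the same order. Probe base composition and brightness gave Pearson correlations between -0.07 and 0.08 and Spearman correlations between -0.17 and 0.05 with the ratios of the 63 genes. The value of -0.17 was base composition on replicate 1, where it was -0.19 over all named genes.

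**Figure D2:**
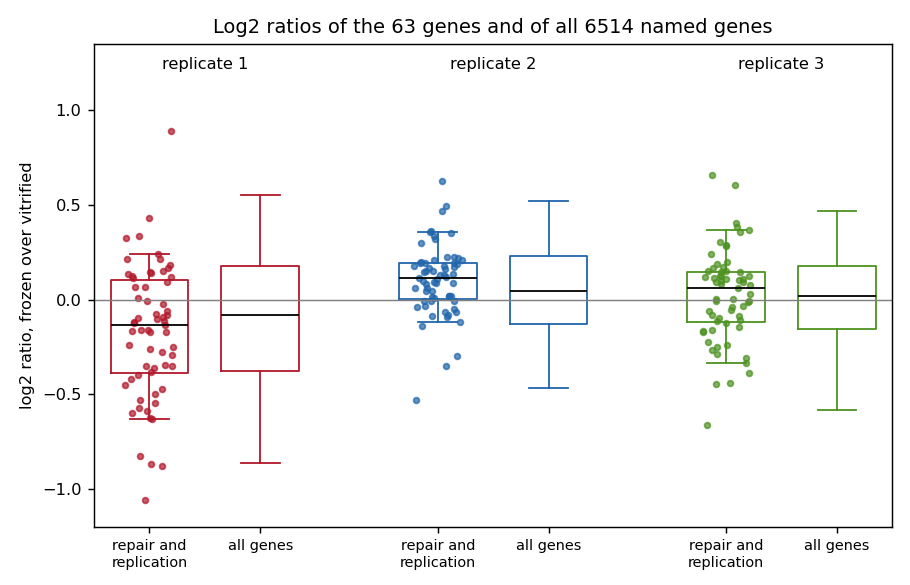
Log2 ratios of frozen over vitrified (y axis) on each array for the 63 genes (left of each pair, with points) and for all 6514 named genes; boxes run from the lower to the upper quartile, lines the median, whiskers the 5th to 95th percentile. The median of the 63 genes is -0.14, 0.12 and 0.06 on replicates 1, 2 and 3.

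Other lists and measures were read on the same arrays. Proliferation markers (5 measured of 6) had medians of -0.43, 0.06 and -0.01 on replicates 1, 2 and 3, and hypoblast markers (6 of 10) had 0.10, -0.86 and -1.41. Trophoblast markers (5 of 9) had -0.16, 0.26 and 0.33 and epiblast markers (3 of 7) -0.75, -0.06 and -0.63. The log2 summed signal of the proliferation markers was 15.4 in frozen and 15.8 in vitrified embryos on replicate 1, and 15.2 and 15.4 on replicate 3. For the hypoblast markers it was 11.7 and 11.6 on replicate 1, and 11.6 and 12.6 on replicate 3. Markers of the uterus (2 of 6) and of blood (2 of 7) had summed signals of 7.45 to 9.88 and 7.34 to 8.24. For 213 transcripts whose probes lay 500 bases apart or more, the log2 ratio of the 3'-most probe minus that of the 5'-most had a median of 0.24, -0.13 and -0.055 on replicates 1, 2 and 3. The part of these measures in the ratios of the repair genes was not tested, and fewer cells of a type cannot be told apart from less RNA per cell.

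Probes of the same gene were compared within and across arrays. Over the 30 genes with several probes, the median SD over probes within an array was 0.096, and the median SD over the 3 arrays was 0.19. The spread over arrays was the wider in 22 of the 30. In 14 of them the probes share at least 12 bases, as in DDB1, POLE and RFC5, and are not independent. In the 16 without shared bases the medians were closer, at 0.11 over probes and 0.13 over arrays. POLI, one of these, had 0.066 over probes and 0.55 over arrays.

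**Figure D3:**
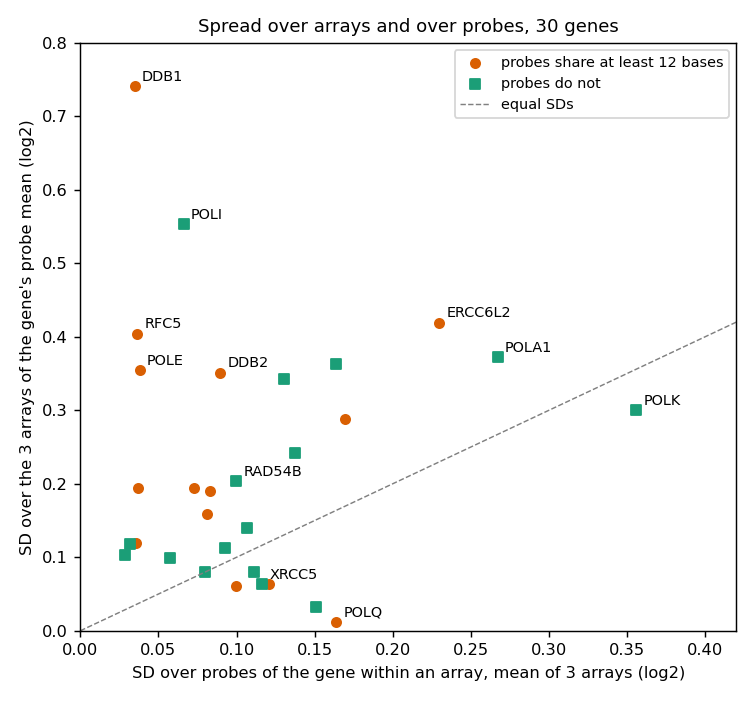
SD over the 3 arrays of a gene's mean log2 ratio (y axis) against the SD over its probes within an array (x axis), for the 30 genes with several probes; the dashed line marks equal SDs. DDB1 and POLI stand far above the line, and POLK and POLQ below it.

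The probe used for POLH and that for FANCF had unlike intensities on the scanned arrays, while their overlapping neighbours did not. Capitals mark the 56 bases that all 5 probes of POLH share, and the probes shown, at chr12:33054016-33054075 and chr12:33054017-33054076, differ only by a shift of 1 base.
POLH, probe used: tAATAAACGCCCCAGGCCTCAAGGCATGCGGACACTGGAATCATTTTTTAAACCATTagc
POLH, next probe along the transcript: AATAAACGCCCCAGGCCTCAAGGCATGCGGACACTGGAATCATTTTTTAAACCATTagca
The POLH probe used had log2 intensities of 5.56 in frozen and 5.42 in vitrified embryos on replicate 1, but 8.67 in both on replicate 3. The other 4 lay between 5.37 and 5.95 on both arrays. Likewise the FANCF probe used had 6.15 in frozen and 6.40 in vitrified embryos on replicate 1 and 8.71 and 8.77 on replicate 3, while its 4 overlapping neighbours lay between 6.08 and 6.77. FANCC, with 1 probe, had 5.95 and 6.02 on replicate 1 and 7.42 and 7.29 on replicate 3. No other gene of the 63 differed by more than 1 between the scanned arrays in the mean of both channels. In a single channel PARPBP did (vitrified, 8.13 on replicate 1 and 6.62 on replicate 3). So did POLI (frozen, 10.70 and 9.64). The mean over all probes was computed for every gene, and for POLH it was -0.0029, against 0.10 from the probe used. The means of POLH's 5 probes ran from -0.10 to 0.10.

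Other genes of replication and repair came from a list of 104. Of 64 measured genes, 28 had a mean above 0 and 36 below it, with a median of -0.02, and 0 passed limma's test (smallest unadjusted p = 0.11). On all 3 arrays 7 were above 0 and 7 below, where 10.7% and 11.7% of all named genes were. MCM8, a helicase of meiotic recombination, and ORC1, which binds replication origins, had the highest means, at 0.26 and 0.25. TDG, a glycosylase that removes mispaired thymine, and MGMT, which takes alkyl groups off guanine, had the lowest, at -0.36 and -0.31. TDG had -0.98, -0.01 and -0.09, and MGMT had -0.14, -0.14 and -0.65. On replicate 1, 41 of the 64 (64.1%) were below 0, where 58.6% of all named genes were. On replicate 2 it was 26 (40.6%, against 43.0% of all named genes) and on replicate 3 it was 28 (43.8%, against 46.8%).

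The direction of the replicate 2 column is likely, not stated, so values with its sign turned were computed. The median of the 63 genes was then -0.05, that of all named genes -0.04, and 11 of the 63 were below 0 on every array, where 15.4% of all named genes were. Above 0 on every array were 2 of the 63, where 11.0% of all named genes were. DDB2 had -0.40, XPC -0.37, XRCC4 0.18, POLB -0.13, FANCL 0.08 and RAD54B 0.08. With the sign turned, FANCI had 0.07, PARP11 0.01 and POLA1 -0.10. None of the 12 genes furthest from 0 changed sign, and 22 of the other 51 did. The 12 were picked by the size of the mean over these same arrays, so fewer sign changes among them follow in part from that choice.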

How the data were processed

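Labelled RNA of 1 frozen and 1 vitrified embryo sample was hybridised to each of 3 Agilent arrays. Per the submitters' processing notes, the software was Agilent Feature Extraction 10.10.1.1. The deposited value table holds log2 values, and on replicates 1 and 3 these equal the log2 ratio of frozen over vitrified processed intensity computed from the authors' scanner files. Its 10 spike-in probes had r = 0.99 for replicate 1 against 3 and -1.00 for replicate 2 against either, so frozen over vitrified is the likely, not stated, direction of replicate 2, since spike-in ratios follow the dyes and the dyes were exchanged. No scanner file of replicate 2 was analysed here. Those of the others hold, per the file headers, processed, mean and background intensity, a log10 ratio and flags per spot. All 22839 probes tested exceeded background clearly in every channel of the scanned arrays, and 0 were saturated.

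Probes were named through RefSeq genes (assembly mOryCun1.1, names only): 13968 had a symbol, 287 of these several, and 8871 had none. Of the 63 genes, 59 were matched by gene number, 2 by gene name and 2 by transcript. The log2 ratios were tested against 0 with limma 3.58.1 (R 4.3.3; lmFit, eBayes, checked on simulated data), adjusted over 22839 probes by Benjamini-Hochberg. Each gene took its probe of highest mean processed intensity. The arrays are labelled biological replicates, and p-values measure the spread between these samples only. The genes, role groups and lists were chosen with earlier results of these data known. The rule for named genes took, per role, up to 4 genes with the largest and 2 with the smallest mean size, full array values for the 12 largest, up to 4 genes whose probes differ most, and the 2 highest and 2 lowest of the other list. Array values of further genes were added after they were seen, and those of a few genes are not reported here. Alternatives were leaving out each array, turning replicate 2, a dye covariate, trend and robust settings, median centring, leaving out dim probes, averaging probes, and normexp with loess.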

Additional observations from a re-analysis of the deposited data

How the results depend on the processing

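No probe was called by limma at an adjusted p under 0.05 in the fit reported (1020 at an unadjusted p under 0.05). Leaving out 1 array gave 0 to 796 calls. The 796 came without replicate 1 (243 higher and 553 lower in frozen embryos), which is 3.49% of all probes, and 0 of the 134 probes of the 63 genes were among them. The median of the 63 genes lay between -0.050 and 0.080 when 1 array was left out, and was -0.047 with replicate 2 turned, 0.018 with dye as a covariate and -0.029 with normexp and loess. Genes of 1 sign on all arrays numbered 11, against 22 to 39 when 1 array was left out and 29 with normexp and loess, where only 2 arrays have to share a sign. Without replicate 1 the sign changed for 4 of the 12 genes furthest from 0, POLI (-0.071), RAD18 (0.0011), LIG3 (0.14) and DDB1 (0.16), and for 21 of the other 51. Over all arrays left out, POLI ran from -0.071 to 0.52, RAD18 from -0.37 to 0.0011, LIG3 from -0.47 to 0.14 and DDB1 from -0.59 to 0.16. DDB1 was 0.018 with dye as a covariate, a fit that gives replicate 2 as much weight as replicates 1 and 3 together. Why replicate 2 differed for DDB1 was not tested. The other 8 of the 12 kept their sign in each alternative that gave them a value. The 12 were picked by the size of the mean over the same arrays, so this is no independent support for a difference. Sizes did depend on the processing. On replicates 1 and 3 DDB2 had -0.64 by the deposited ratios and -0.29 with normexp and loess. XPC had -0.52 and -0.24, and MSH5 -0.32 and -0.13, in the same order. LIG1 (-0.40 and -0.44) and FANCL (0.21 and 0.22) moved slightly away from 0 instead. The fit was itself paired, because the ratio of each array compares its own frozen and vitrified samples, which leaves no further replicate block to fit. The 95% intervals of 50 of the 63 genes lay within 1.5-fold either way. Those of the rest reached past 1.5-fold, which limits what 3 arrays could show for them.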
